A study of Homo sapiens with 4 samples.

Results

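Short isolated H3K27ac peaks, each less than 500 bp long and with no other peak of the same list within 20000 bp, were examined on the autosomes of 2 BCP-ALL (B-cell precursor acute lymphoblastic leukemia) cell lines. They numbered 4942 of 119130 deposited peaks, with 2433 among the 44626 peaks of REH and 2509 among the 74504 of 697. They were chosen by measured values, the length of the peak and the distance to its nearest neighbor in the same list, so lengths and distances within a list are given as descriptions. The position of the peaks in the other cell line was not used to choose them.

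REH carries the ETV6/RUNX1 fusion and 697 does not, and both are established lines grown in culture without treatment. ChIP-seq for H3K27ac was done once per line, with input DNA of that line as the control, to map the mark across the genome in a fusion-positive and a fusion-negative leukemia. With 1 library per line there is no replicate check, a difference between the lists cannot be told apart from a difference between the libraries, and no p-value is given. Percents carry 95% Wilson intervals and differences of percents carry 95% Newcombe intervals, which cover counting error only and treat neighboring peaks as independent.

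H3K27ac is an acetyl group on a lysine in the tail of histone H3, and it marks the nucleosomes that flank active promoters and active enhancers. Active regulatory DNA tends to lie in groups, with promoters and their enhancers near each other in gene-dense stretches, so that wide acetylated domains and neighboring peaks are usual. A short peak far from any other is the opposite arrangement, a stretch of few nucleosomes that stands alone in the list.

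In both lines about the same number of peaks was short and isolated, although the 697 list held 1.69 times as many autosomal peaks as the REH list. In REH, 2433 of 43547 autosomal peaks were short and isolated, which is 5.59% (5.38 to 5.81). In 697 it was 2509 of 73460, or 3.42% (3.29 to 3.55). The ratio of 697 to REH was 1.03 for short isolated peaks, 2.09 for all short peaks and 2.47 for short peaks with a neighbor in the same list within 20000 bp, called short clustered peaks here. The number of ChIP tags behind the lists differed less, with 697 at 1.06 times REH (65241657 tags in REH and 68911420 in 697 after duplicates were removed). Short clustered peaks numbered 6732 in REH and 16657 in 697, so that 26.5% of the short REH peaks (25.7 to 27.5) and 13.1% of the short 697 peaks (12.6 to 13.6) were isolated. Standing apart was about as frequent among longer peaks, since of the peaks of 500 bp or more 25.1% were isolated in REH and 11.6% in 697. Shortness and isolation were thus nearly unrelated within REH, where 21.97% of isolated and 20.7% of clustered peaks were short. In 697 these percents were 28.5% and 25.8%.

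Apart from their neighbors, the short isolated peaks had nearly the lengths of the short clustered peaks. The median length was 323 bp (quartiles 239 and 412) in REH and 316 bp (234 and 403) in 697, against 331 bp and 325 bp for short clustered peaks. MACS does not write a peak shorter than its estimated fragment length, which was 187 bp in REH and 185 bp in 697. Exactly this length was given for 85 of the short isolated REH peaks, or 3.49% (2.83 to 4.30), and for 3.996% of the short clustered ones. In 697 it was 151 peaks, or 6.02% (5.15 to 7.02), against 4.92%. The plot of lengths shows nearly the same outline for isolated and clustered peaks in each line, apart from the shortest class in 697, under 200 bp, which held 12.4% of the isolated and 10.02% of the clustered peaks.

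**Figure D1:**
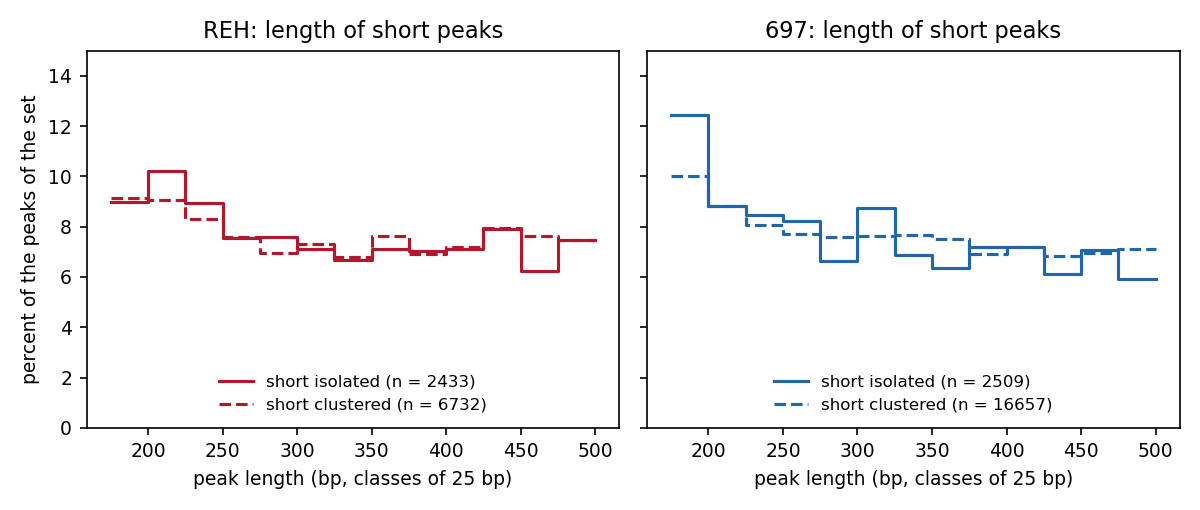
Percent of the peaks of each set (vertical axis) in classes of 25 bp of peak length (horizontal axis, bp) for short isolated and short clustered peaks in REH and in 697. The outlines of the sets lie close together except under 200 bp in 697 (12.4% isolated, 10.02% clustered), and the medians are 323 and 331 bp in REH and 316 and 325 bp in 697.

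The limits of 500 bp and 20000 bp did not fall at a break in the values. Just inside the length limit, 36 REH and 27 697 isolated peaks were within the last 5 bp below 500 bp, and just outside it 33 and 32 were within the first 5 bp from 500 bp on. The nearest neighbor lay at most 1000 bp beyond the distance limit for 83 REH and 128 697 short isolated peaks, while 89 and 139 other short peaks had it at most 1000 bp within the limit. The single REH peak closest inside the distance limit was the 441 bp peak at chr9:78286209-78286649, whose neighbor lay 20011 bp away, and the 227 bp peak at chr15:36892207-36892433, with a neighbor at 19997 bp, was the closest outside. In 697 these were the 185 bp peak at chr1:95340059-95340243, with a neighbor at 20004 bp, and the 401 bp peak at chr10:19313498-19313898, with a neighbor at 19984 bp. All coordinates are on hg19.

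Most short isolated peaks lay well beyond the limit. The nearest peak of the same list was at a median of 43783 bp in REH (quartiles 28001 and 81544) and of 36858 bp in 697 (26268 and 65229). More than 100000 bp were free on both sides of 466 REH peaks (19.2%, 17.6 to 20.8) and 370 697 peaks (14.7%, 13.4 to 16.2). The next peak on at least 1 side was itself short and isolated for 695 REH peaks (28.6%) and 721 697 peaks (28.7%). Of all autosomal peaks, 5.59% in REH and 3.42% in 697 were short and isolated. These shares are per peak, while the count above takes a peak on either side, so they are not on equal terms. By the rule, the next peak also has no neighbor within 20000 bp on the facing side. How far the higher percents follow from the rule was not tested.

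The largest of these empty stretches were over a megabase wide on each side. The most isolated REH peak was the 363 bp peak at chr1:81605730-81606092, with 1698149 bp free to its left and 1231664 bp to its right, and the nearest 697 peak lay 737375 bp away. The next was a 225 bp peak at chr9:40791906-40792130, with 2091477 and 1161760 bp free. Here 697 had a peak of 547 bp over it, chr9:40791745-40792291. The last of the 3, chr9:46843781-46844171, was 391 bp long with 1114344 bp free to the left and 19613474 bp to the right, a stretch that includes the centromere. The nearest 697 peak lay 1401380 bp away. Of the 3 most isolated peaks of REH, 1 was thus marked in 697.

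In 697 the most isolated peak was the 342 bp peak at chr11:98940600-98940941, with 2816805 and 1616674 bp free and the nearest REH peak 2085964 bp away. The 424 bp peak at chr18:63404738-63405161 had 1465455 and 1505930 bp free in 697 and lay within a REH peak of 1510 bp, chr18:63404487-63405996. The 415 bp peak at chr8:138647866-138648280 had 2096255 and 1227634 bp free and lay within a REH peak of 1579 bp, chr8:138647315-138648893. At both places the mark stood alone in 697 and was wider in REH.

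The main comparison asked whether the other line also had a peak at these places. Short isolated peaks were found in the other line less often than short clustered peaks in REH, and more often in 697. In REH, a 697 peak overlapped 853 of 2433 short isolated peaks by 1 bp or more, which is 35.1% (33.2 to 37.0), and 2805 of 6732 short clustered peaks, which is 41.7% (40.5 to 42.8). Among all autosomal REH peaks the share was 64.3%. The difference between isolated and clustered short peaks in REH was -6.61 percentage points (-8.82 to -4.36). In 697, a REH peak overlapped 575 of 2509 short isolated peaks, which is 22.9% (21.3 to 24.6), and 2523 of 16657 short clustered peaks, which is 15.1% (14.6 to 15.7), beside 38.5% of all autosomal 697 peaks. The difference in 697 was 7.77 percentage points (6.08 to 9.54). In both lines the short peaks, isolated or not, were therefore below the share of all peaks. The share of short isolated REH peaks overlapped was 20.8% when the 697 list was reduced to the number of REH peaks, by p-value or by length. With the reduction by p-value the share of short isolated 697 peaks was 20.2%. Each reduction also changed which kinds of 697 peaks remained, so the size of the list alone was not tested. With a q-value of at most 0.05 the shares were 22.9% in REH and 17.4% in 697, and with a −log10 p-value of at least 5 they were 10.5% and 9.49%. The direction of the difference was the same under all 13 other settings in REH and under the 12 that changed its value in 697. At the threshold on the p-value its interval included 0 in 697 (1.48, -0.29 to 3.45), and in REH it was -2.33 (-4.25 to -0.31). The cuts by p-value and q-value rest on deposited signal columns that hardly followed the positions. Between the lines, p-values of peaks that overlapped 1 to 1 were hardly related beyond the first 80 REH peaks of each chromosome. There the Spearman rho was 0.02 over 23901 peaks. It was 0.26 among the first 10 REH peaks of each chromosome and 0.11 for peaks 11 to 80. These cuts therefore cannot be read as results for stronger peaks.

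The opposite directions also appeared over the distance to the nearest peak of the same list, though not in every step. In REH the overlapped percent went from 43.4% of 2005 short peaks with a neighbor closer than 2000 bp to 39.4% at 10000 to 20000 bp. It was 35.7% (33.2 to 38.3) at 20000 to 50000 bp, 36.7% (32.9 to 40.7) at 50000 to 100000 bp, and 31.1% (27.1 to 35.5) of the 466 peaks beyond 100000 bp. In 697 it was 16.2% of 6621 short peaks with a neighbor closer than 2000 bp, 13.2% at 2000 to 5000 bp and 14.5% at 5000 to 10000 bp. It was 17.1% at 10000 to 20000 bp, 19.95% at 20000 to 50000 bp, 25.2% at 50000 to 100000 bp and 32.7% (28.1 to 37.6) of the 370 peaks beyond 100000 bp. REH minus 697 was thus 27.2 percentage points for the most clustered short peaks and -1.59 points, with overlapping intervals, for the most isolated, with the REH peaks set against a list 1.69 times as long as the list the 697 peaks were set against. The median length was 319 to 334 bp over the classes of distance in REH and 315.5 to 327 bp in 697.

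**Figure D2:**
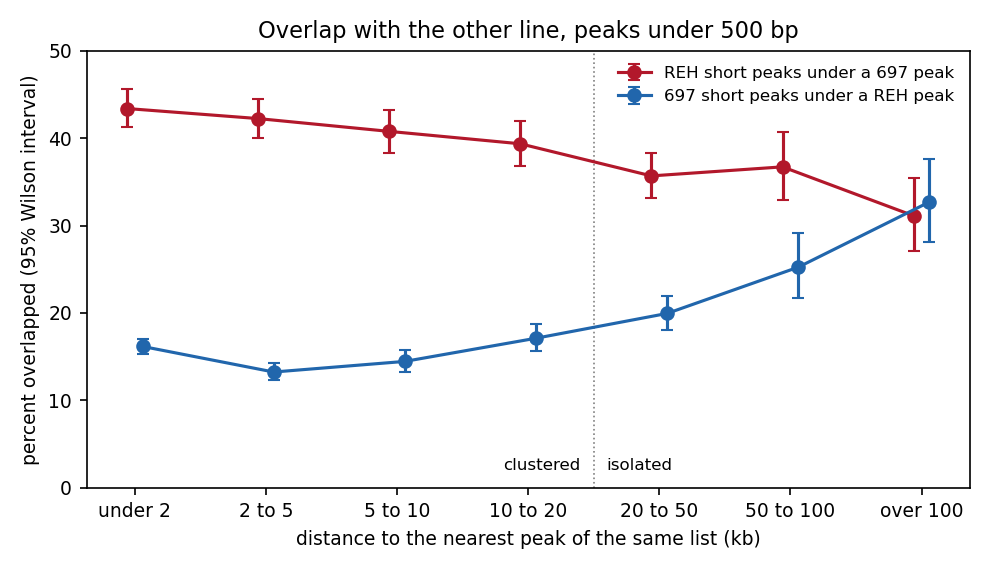
Percent of short peaks overlapped by a peak of the other line (vertical axis, bars are 95% Wilson intervals) by distance to the nearest peak of the same list (horizontal axis, classes), with the limit of 20000 bp marked. REH goes from 43.4% down to 31.1% and 697 from 16.2% up to 32.7%, and the lines meet for the most isolated peaks.

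The surroundings of the peaks in the other line differed more than the overlap itself. Of the short isolated REH peaks, 1124 (46.2%, 44.2 to 48.2) had no 697 peak within 20000 bp, and 456 (18.7%) had one nearby but not over them. Of the short isolated 697 peaks, 1608 (64.1%, 62.2 to 65.9) had no REH peak within 20000 bp and 326 (13.0%) had one nearby only. Short clustered peaks had no peak of the other line within 20000 bp in 12.3% of cases in REH and 23.9% in 697. For isolated peaks of 500 bp or more it was 25.2% in REH and 35.0% in 697, and for clustered peaks of that length 7.27% and 15.9%. The 697 peaks were set against the shorter list, so the percents of the 2 lines are not on equal terms. Most short isolated 697 peaks thus had no REH peak over them or in the 20000 bp around them. Dense surroundings in the other line were less frequent for isolated than for clustered peaks. At least 5 peaks of the other line lay within 20000 bp of 189 short isolated REH peaks (7.77%, 6.77 to 8.90) and 15 short isolated 697 peaks (0.598%, 0.363 to 0.984). For isolated peaks of 500 bp or more the shares were nearly the same, 8.18% and 0.445%, and for short clustered peaks they were 38.4% and 9.57%. Whether the lower shares of isolated peaks follow from the rule, through places marked in both lines, was not tested.

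Where the other line did have a peak within 20000 bp, it usually lay at the same place. Of 1309 such REH peaks 853 were overlapped, which is 65.2% (62.5 to 67.7), against 47.5% of short clustered REH peaks with a 697 peak within that distance, a difference of 17.6 percentage points (14.7 to 20.5). Of 901 such 697 peaks 575 were overlapped, or 63.8% (60.6 to 66.9), against 19.9% of short clustered ones, a difference of 43.9 points (40.7 to 47.1). Counted this way, isolated peaks were above clustered peaks in both lines. The sets behind these percents are unlike, since isolated peaks had fewer peaks of the other line within 20000 bp. The median number was 1 for short isolated and 3 for short clustered peaks in REH, and 0 and 2 in 697. How far the contrast follows from the rule, through places marked in both lines, was not tested. When the other line's nearest peak was within 20000 bp but not over the short isolated peak, it lay at a median distance of 6052 bp from REH peaks and 9588 bp from 697 peaks.

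The profile of the other line's peaks around the centers of the short peaks is a narrow spike. At the center itself, 30.7% of the short isolated REH peaks were covered by a 697 peak, against a mean of 2.31% at 10000 to 20000 bp from the center, a ratio of 13.3. For short clustered REH peaks the values were 37.2% and 13.5%, a ratio of 2.76. At the center of short isolated 697 peaks 20.8% were covered by a REH peak and 0.674% at 10000 to 20000 bp, a ratio of 30.8, while short clustered 697 peaks had 13.1% and 7.20%, a ratio of 1.82. Already 2000 bp from the center, coverage was down to 3.82% and 3.74% on the left and right of the isolated REH peaks and to 1.04% and 0.717% for the 697 peaks. The ratios differ mainly through the values far from the center, where isolated peaks had less coverage by the other line than clustered peaks in both lines. Around isolated peaks these stretches hold no peak of the same list, by the rule.

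**Figure D3:**
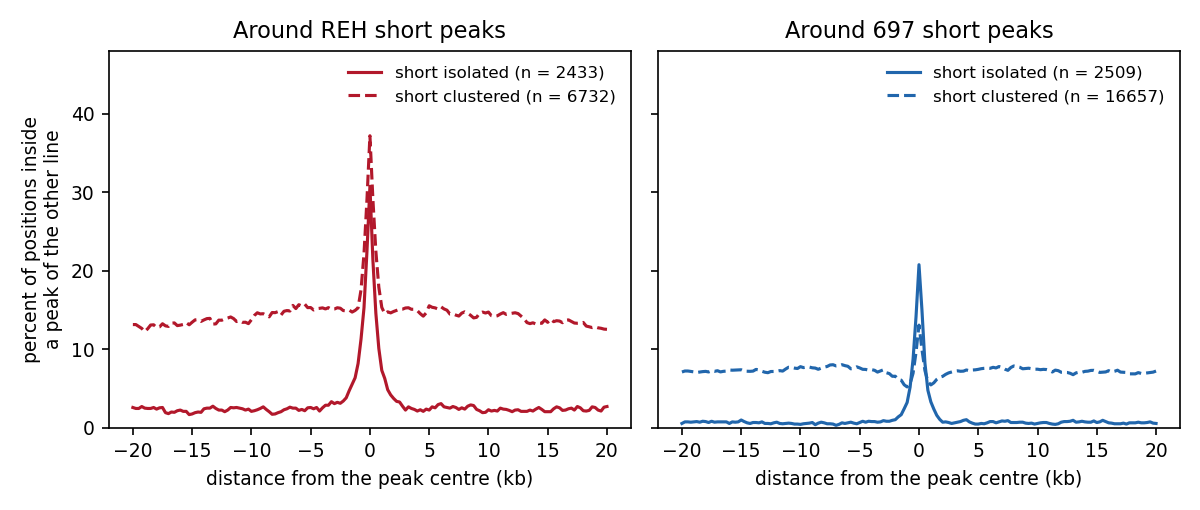
Percent of short peaks covered by a peak of the other line (vertical axis) against distance from the center of the peak (horizontal axis, kb), for isolated and clustered short peaks of REH and of 697. All 4 curves have a maximum at the center, and the curves of isolated peaks fall to 2.31% in REH and 0.674% in 697 at 10 to 20 kb, below those of clustered peaks at 13.5% and 7.20%.

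The peak that the other line had at these places was mostly longer than 500 bp. The median length of the 697 peak over a short isolated REH peak was 862 bp (quartiles 466 and 1522), and 27.7% of them (24.8 to 30.8) were themselves short. The median length of the REH peak over a short isolated 697 peak was 769 bp (468 and 1272), and 27.8% (24.3 to 31.6) were short. The other line's peak was 2000 bp or longer for 139 REH peaks (16.3%) and 52 697 peaks (9.04%), and it enclosed the short peak wholly in 466 cases (54.6%) in REH and 364 (63.3%) in 697. The overlapping REH peak was itself isolated in REH for 377 of 575 short isolated 697 peaks (65.6%, 61.6 to 69.3). The overlapping 697 peak was isolated for 351 of 853 short isolated REH peaks (41.1%, 37.9 to 44.5). For short clustered peaks this was so in 11.9% in 697 and 3.46% in REH. Within each line, the overlapped short isolated peaks were slightly longer at the median, with 342 and 312 bp for overlapped and not overlapped peaks in REH and 329 and 313 bp in 697. Their ranges largely coincided, with quartiles of 252 and 425 bp against 234 and 408 bp in REH, and of 247.5 and 419 bp against 232 and 400 bp in 697.

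At a few places a short isolated peak of 1 line lay within a wide domain of the other. The REH peak of 361 bp at chr1:203145355-203145715 had no REH neighbor within 90930 bp, and 697 had a peak of 17486 bp there, chr1:203138722-203156207. The 206 bp REH peak at chr9:135356957-135357162 lay in a 697 peak of 10028 bp, with 9 697 peaks within 20000 bp, and the 337 bp REH peak at chr7:3983176-3983512 lay in a 697 peak of 9016 bp with 8. In the other direction, the 224 bp 697 peak at chr5:134710741-134710964 lay in a REH peak of 7777 bp, the 260 bp peak at chr9:116540011-116540270 in one of 7184 bp, and the 344 bp peak at chr1:194834697-194835040 in one of 7151 bp. These 6 peaks were named for the length of the other line's peak and are the far end of its range.

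A short isolated peak in both lines at the same place was found 127 times, which is 5.22% of the short isolated REH peaks (4.40 to 6.18) and 5.06% of those of 697 (4.27 to 5.99). The pairs lay on 21 of the 22 autosomes, with the most, 17, on chromosome 5, which held 155 short isolated peaks in REH and 170 in 697. Chromosome 1, which held 226 and 241, had 9 pairs. Over all 127 pairs the median length was 376 bp in REH and 310 bp in 697. The median number of shared bases was 220, and the midpoints lay a median of 81 bp apart. The lengths in REH and 697 were hardly related within pairs (Spearman rho 0.03 over 127 pairs, all under the same length limit).

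The pairs that shared the most bases had nearly the same ends in both lines. This follows from choosing them by shared bases among peaks under 500 bp, so it does not describe the pairs as a whole. On chromosome 11 the REH peak spanned 130113653 to 130114147 and the 697 peak 130113646 to 130114118, with 466 shared bases. On chromosome 19, REH had 22817136 to 22817623 and 697 had 22817150 to 22817599, with 450 shared bases and the nearest other peak 148562 bp away in REH and 285212 bp in 697. On chromosome 9 the spans were 97021581 to 97022029 and 97021548 to 97022018, with 438 shared bases. Pairs with 412 shared bases lay on chromosome 12, at 81914061 to 81914498 and 81914046 to 81914472, and on chromosome 4, at 128914046 to 128914457 and 128913999 to 128914464. The peak on chromosome 12 was the most isolated of the 5, with 315977 and 836994 bp free in REH and 741019 and 837121 bp in 697.

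Longer peaks have more bases at which a peak can overlap them, so isolated and clustered peaks were also compared within classes of length. The percent with the midpoint under a peak of the other line was counted as well. For isolated peaks it went from 23.7% under 200 bp to 75.8% at 2000 to 5000 bp in REH, and from 16.0% to 77.5% in 697. In REH the overlapped percent of short isolated peaks went from 25.1% under 200 bp (55 of 219, 19.8 to 31.3) to 39.9% at 400 bp and more (36.3 to 43.6), and that of short clustered peaks from 33.4% to 43.99%, so the isolated peaks were lower in each of the 4 classes under 500 bp. In 697 the short isolated peaks went from 16.7% (52 of 312, 12.9 to 21.2) to 26.4% (23.1 to 29.9) and the short clustered peaks from 10.1% to 17.7%, and the isolated peaks were higher in each class. Among longer REH peaks, 44.3% of isolated and 52.6% of clustered peaks were overlapped at 500 to 750 bp, 56.3% and 58.9% at 750 to 1000 bp, 70.4% and 69.8% at 1000 to 1500 bp, 78.9% and 80.5% at 1500 to 2000 bp, and 84.3% and 85.95% at 2000 to 5000 bp. In 697 it was 31.8% and 21.5% at 500 to 750 bp and 65.0% and 43.7% at 1000 to 1500 bp. Over all peaks of 500 bp or more the difference was -4.99 percentage points (-6.13 to -3.86) in REH and 13.0 (11.7 to 14.3) in 697. These differences are not matched on length, and among these longer REH peaks the intervals of isolated and clustered peaks were apart at 500 to 750 bp and overlapped in the classes from 750 bp to 5000 bp.

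**Figure D4:**
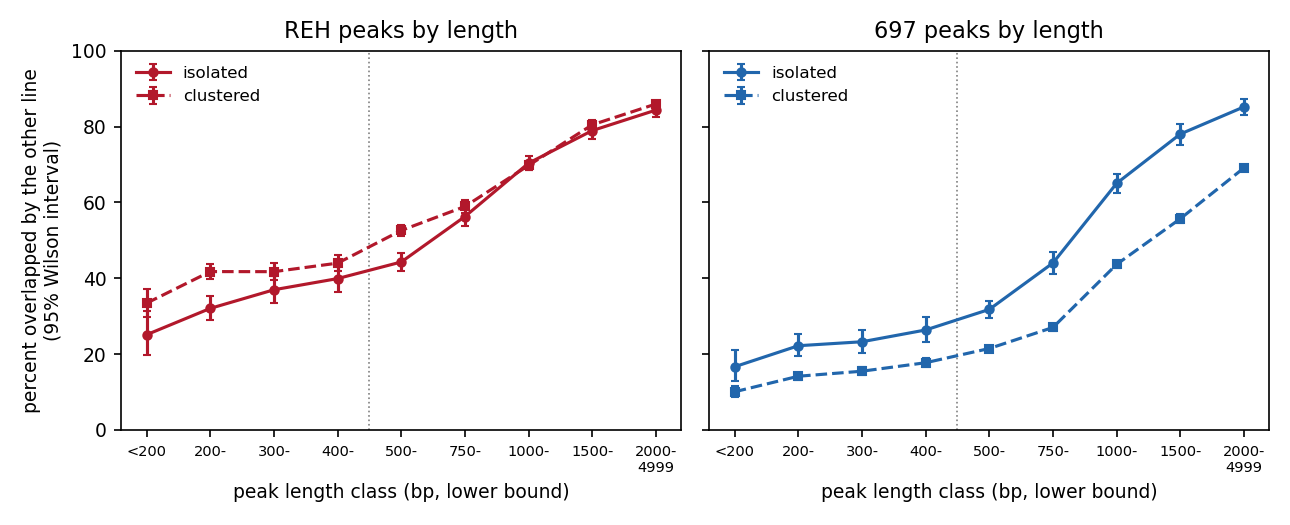
Percent of peaks overlapped by a peak of the other line (vertical axis, bars are 95% Wilson intervals) by class of peak length (horizontal axis, bp), for isolated and clustered peaks of REH and of 697. Isolated peaks lie below clustered ones in REH up to 1000 bp, meet them at 1000 to 1500 bp (70.4% and 69.8%), and lie above them in 697 in every class.

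Along the genome, the share of peaks that were short and isolated was lower on chromosomes with more genes per Mb in both lines, as a correlation with exceptions. Per 1000 peaks of the chromosome, REH had the most on chromosome 4 (85.3, 73.8 to 98.5), chromosome 13 (83.8) and chromosome 3 (70.6). 697 had the most on chromosome 4 (60.9, 51.7 to 71.6), chromosome 13 (52.0) and chromosome 18 (49.6). The fewest in REH were on chromosomes 19 (15.5, 11.1 to 21.6), 22 (26.2) and 17 (27.2), and the fewest in 697 were on chromosomes 17 (11.1, 8.40 to 14.6), 19 (13.1) and 22 (17.5). Chromosome 4, with 3.98 protein-coding genes per Mb, thus differed from chromosome 19, with 25.2, by more than the intervals in each line. The order was not strict, since REH had 70.6 on chromosome 3, with 5.45 genes per Mb, and 64.8 on chromosome 18, with 3.31. Over the 22 autosomes the number per 1000 peaks was related between the lines with r = 0.95 (rho 0.93), and to protein-coding genes per Mb with r = -0.83 (rho -0.83) in REH and r = -0.76 (rho -0.89) in 697. It was also related to the line's own peaks per Mb with r = -0.91 (rho -0.81) in REH and r = -0.88 (rho -0.89) in 697. These correlations are descriptions, since the points share 1 library per line and the choice of isolated peaks itself depends on how densely a chromosome is covered.

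Counted per Mb, the short isolated peaks were spread more evenly and the chromosomes of the lines were less alike. Chromosome 4 held 0.875 per Mb in REH and 0.713 in 697, and chromosome 19 held 0.579 and 0.698. The correlation between the lines over the 22 autosomes was r = 0.38 (rho 0.36) on this scale. More of them lay in 697 on 14 autosomes and in REH on 8, although 697 had more peaks on each of the 22. Chromosome 6 had 182 in REH and 137 in 697, chromosome 4 had 167 and 136, and chromosome 17 had 67 and 49. Copy number differences between the lines were not analysed here.

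**Figure D5:**
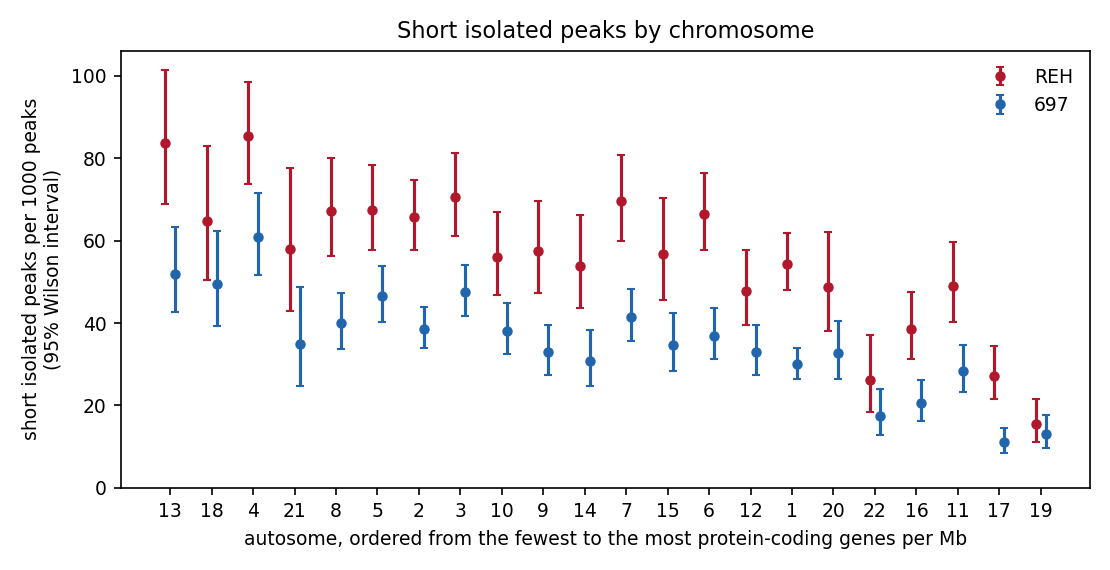
Short isolated peaks per 1000 peaks of the chromosome (vertical axis, bars are 95% Wilson intervals) for the 22 autosomes of REH and of 697. The autosomes stand at equal steps, ordered from the fewest to the most protein-coding genes per Mb (horizontal axis). Chromosomes 4 and 13 are at the top in both lines (85.3 and 83.8 in REH, 60.9 and 52.0 in 697), and chromosomes 17, 19 and 22 at the bottom.

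The opposite directions of overlap held on most chromosomes but not on all. In 697, short isolated peaks were overlapped more often than short clustered peaks on 19 of 22 autosomes, the exceptions being chromosomes 18, 19 and 22. In REH they were overlapped more often on 5 of 22, chromosomes 5, 9, 13, 19 and 20. On chromosome 13 in 697, 30.4% of 92 short isolated peaks (21.97 to 40.5) were overlapped, against 14.03% of the short clustered ones. On chromosome 18 in REH it was 22.4% of 58 short isolated peaks (13.6 to 34.7), against 39.3% of the short clustered ones. The percent of short isolated peaks overlapped per chromosome was not related between the lines (r = -0.05, rho -0.10 over 22 autosomes).

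Within chromosomes, the short isolated peaks lay in many bins of 1 Mb, and most bins that held any held exactly 1. The rule itself keeps them over 20000 bp apart, and no expected number per bin was computed. Of 2500 bins of 1 Mb that held a REH peak, 1505 held a short isolated one, 876 of them exactly 1, and at most 6 fell in a bin. In 697 it was 1462 of 2456 bins, 790 of them with exactly 1, and at most 7. Bins with 5 or more numbered 14 in REH and 21 in 697. Bins with a short isolated peak held a median of 15 REH peaks or 24 697 peaks, against 13 and 21 in all bins with a peak, so they were not bins that were otherwise empty. A bin with more peaks has more chances to hold a short isolated one, so the higher medians say little about where these peaks lie.

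The deposited signal values are given with a limit, since they hardly followed the positions they stand beside. The median pileup of short isolated peaks, the mean number of ChIP fragments over the peak, was 21.4 in REH, against 21.2 for short clustered and 21.8 for all autosomal peaks. In 697 the 3 medians were 14.01, 14.05 and 14.12. The median fold enrichment over the local background was 1.55, 1.57 and 1.58 in REH and 1.403, 1.420 and 1.414 in 697. Short isolated peaks that the other line overlapped had a median pileup of 21.6 and the others 21.3 in REH, and 13.90 and 14.045 in 697.

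Pileup was related between a short isolated peak and the next peak in the list, which lies over 20000 bp away, with a Spearman rho of 0.72 in REH over 2431 peaks and of 0.72 in 697 over 2507, while length was not (rho -0.03 in each). Between the lines, peaks that overlapped 1 to 1 had pileups related with a rho of 0.26 among the first 10 REH peaks of each chromosome (116 peaks), 0.09 for peaks 11 to 80 (915 peaks) and 0.02 beyond (23901 peaks), and lengths with a rho of 0.43 to 0.50. Whether the signal columns belong to the positions they stand beside was not tested further, so near-equal medians of these columns say nothing about the short isolated peaks, and the results above that use position and length alone do not use them. With that limit, the highest deposited fold enrichments of short isolated peaks were 6.35 at chr5:95493423-95493609, 6.26 at chr4:5076210-5076570 and 6.18 at chr1:210424734-210425077 in REH. In 697 they were 6.67 at chr11:129912204-129912417, 6.42 at chr14:93105453-93105837 and 5.84 at chr3:100922904-100923308. None of these 6 peaks was overlapped by the other line. Of all short isolated peaks, 35.1% were overlapped in REH and 22.9% in 697. So few peaks therefore say nothing about short isolated peaks of high fold enrichment.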

How the data were processed

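The authors mapped ChIP and input reads to hg19 and called peaks per line against its input. The methods name Bowtie and MACS 1.4, the submitters' processing notes Bowtie2 and MACS2. Per the file headers, MACS 2.1.0.20150731 was run in broad mode, keeping 1 tag per position, at q-values of 0.05 (strong) and 0.1 (broad). Deposited per peak are its position and length in bp, its pileup (a coverage signal), its fold enrichment as a linear ratio, and its p-value and q-value as −log10. By the same headers, 65241657 REH and 68911420 697 ChIP tags remained, against 73916142 and 74026548 input tags. The lists give no counts per peak, so depth per peak is unknown. Reads and input libraries were not analysed here.

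Chromosome X, Y and other peaks (1079 in REH, 1044 in 697) were left out. Lengths, distances to the nearest peak and overlaps (1 bp or more) were computed from the positions in pandas 2.3.3 and numpy 2.4.6 (Python 3.11.15), intervals with scipy 1.17.1 and figures with matplotlib 3.10.9, by scripts that were tested on simulated data. Genes per Mb are whole-chromosome counts from GENCODE 44 on GRCh38, not combined with any hg19 position. Gene context and sequences, which need an hg19 reference, were left out. Groups are the cell lines as labelled. No test was made, since each line has 1 library.

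Peaks, classes and comparisons were chosen with earlier results of these data known. Named are, per line, the 3 most isolated peaks, the 3 under the longest peak of the other line, the 3 of highest fold enrichment, up to 5 shared pairs by shared bases, the 3 autosomes with the most and the 3 with the fewest per 1000 peaks, and peaks just inside and outside the limits. Chromosomes 1, 5 and 6 and the exceptions among chromosomes were named after their values were seen. Alternatives changed the distance and length limits, the threshold on the peaks, the overlap, the merging of peaks, the list sizes and the chromosomes.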

Additional observations from a re-analysis of the deposited data

Results flagged for a closer look

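The difference in overlap between short isolated and short clustered peaks had opposite directions in the lines. It was -6.61 percentage points in REH, where 35.1% of short isolated and 41.7% of short clustered peaks lay under a 697 peak, and 7.77 percentage points in 697, where 22.9% and 15.1% lay under a REH peak. The difference between the lines was not tested, since each has 1 library.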

How the results depend on the processing

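Of 78 values under 13 alternatives, 12 were identical to those reported because the setting leaves them as they are (the numbers where only the overlap rule or its target changes, for example). Of the other 66, 35 moved (numbers by over 1.5 times, percents and differences beyond their 95% interval) and 0 changed direction. The difference in overlap was below 0 in REH under all 13, and above 0 in 697 under the 12 that changed it. Counting neighbors within 10000 bp gave 3805 short isolated peaks in REH and 4712 in 697, with 20.2% overlapped and a difference of 5.36 in 697. Within 50000 bp the numbers were 1057 and 885, with 28.4% and 12.8 in 697. A length under 300 bp gave 1055 and 1118 peaks, 30.6% and 20.7% overlapped, and a difference of -9.29 in REH. A length under 1000 bp gave 5626 and 5325 peaks, 43.4% and 30.4% overlapped, and a difference of 10.6 in 697.

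Thresholds on the deposited p- and q-values shortened both lists, and they rest on the signal columns, whose limit is given above. With a q-value of at most 0.05, 22.9% of REH and 17.4% of 697 short isolated peaks were overlapped, and the difference in 697 was 4.38. With a −log10 p-value of at least 5 there were 1502 and 1180 short isolated peaks, 10.5% and 9.49% were overlapped, and the differences were -2.33 and 1.48. With the 697 list reduced by p-value to the number of REH peaks, 20.8% and 20.2% were overlapped and the difference in 697 was 5.23. An overlap of 50% of the shorter peak gave 31.7% and 21.2%, and counting midpoints gave 30.7% and 20.8%.

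Chosen after seeing the data, reducing the 697 list to its longest peaks as the target of overlap left 20.8% of short isolated REH peaks overlapped and could not change the values of 697, and leaving out peaks at the fragment length moved no value beyond its interval. Merging peaks within 1000 bp and adding chromosome X moved none either. No paired analysis was possible because each line has 1 library. Depth per peak is unknown, so no limit of detection can be given.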
